A study of Mus musculus with 12 samples.

Results

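The genes described here encode the aminoacyl-tRNA synthetases, the enzymes that join each amino acid to its transfer RNA before translation. They were taken by name from the gene symbols of the deposited tables: a capital letter followed by "ars" with or without a final 1 or 2, plus Eprs, Farsa and Farsb. This gave 37 genes of the 55414 gene records, of which 20 encode cytosolic enzymes and 17, whose names end in 2, encode mitochondrial enzymes. Gars1 and Kars1, counted here as cytosolic, each make both forms of their enzyme. All 37 passed the filter on low counts in every comparison, and the lowest count of any member in any library was 35, for Sars2.

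RNA was sequenced from splenic CD4+ T cells of male wild-type BALB/c mice aged 18 weeks. Mice of the LIP group carried silk ligatures around the maxillary second molars, which induce periodontitis, and mice of the CTL group were anesthetized and received none. The cells were purified by negative selection. Cells were taken either uncultured (day 0) or after 2 days of culture with IL-2 at 10 ng/mL, anti-TCRβ at 1 µg/mL and anti-CD28 at 1 µg/mL (day 2), with 3 libraries in each of the 4 groups. These doses are those of the labels, and the study's methods give other doses of IL-2 and anti-TCRβ for its cultures. The protocol text names anti-CD28 for all cultures, but the treatment labels of CTL 93 and LIP 96 on day 2 name anti-CD29 and those of CTL 97 and LIP 97 name anti-CD30. Libraries are called by the number in their titles; the labels do not say whether a number stands for 1 animal, so p-values measure the spread between these libraries, which may in part be technical.

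Each cytosolic synthetase loads 1 amino acid, except that Eprs1 carries the activities for glutamate and proline, and that the enzyme for phenylalanine is built from the products of Farsa and Farsb. 8 of the cytosolic enzymes are held in the multisynthetase complex by the scaffold proteins Aimp1, Aimp2 and Eef1e1. The mitochondrial enzymes are separate proteins, imported to serve the organelle's own ribosomes. T cells that are stimulated through the antigen receptor enlarge and raise protein synthesis before they divide. Several cytosolic synthetase genes are known targets of ATF4, the transcription factor of the amino acid response.

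The libraries held 6249018 to 12866718 expected counts, and the members took 0.183% to 0.191% of them on day 0 and 0.275% to 0.551% on day 2. Levels below are CPM, a gene's expected count scaled to the TMM-adjusted size of its library. Groups were compared by the quasi-likelihood test of edgeR, p-values were adjusted across the whole table (Benjamini-Hochberg), and a gene with an adjusted p below 0.05 was called higher or lower. Cd4 was at 422 to 645 CPM in all libraries and the CD8 genes Cd8a and Cd8b1 at no more than 2.25 and 10.95 CPM, and Il2ra, the high-affinity chain of the IL-2 receptor, lay between 77.6 and 107 CPM on day 0 and between 1299 and 1851 CPM on day 2.

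In uncultured CTL cells, levels per kilobase of the Ensembl canonical transcript were highest among the cytosolic genes for Nars1 (28.9 ± 2.48 CPM per kb, SD, n = 3), and Sars1 (27.9 ± 1.55) was among the next, without a difference beyond their spread. With the union of all exons as the length the highest were Nars1, Sars1 and Vars1. Levels were lowest for Cars1 (3.94 ± 0.215 CPM per kb), Yars1 (9.34 ± 0.921) and Mars1 (9.93 ± 0.154). Among the mitochondrial genes Tars2 stood apart at 28.3 ± 1.74 CPM per kb, followed by Iars2 (12.0 ± 1.13) and Nars2 (10.8 ± 0.592), and Aars2 (1.60 ± 0.211), Sars2 (1.81 ± 0.326) and Yars2 (1.98 ± 0.0615) were lowest. With the union of all exons Tars2 was followed by Nars2, Hars2 and Iars2, and the lowest were Wars2, Sars2 and Aars2. The median cytosolic gene stood at 3.25 ± 0.473 times the median mitochondrial gene in CTL and 3.21 ± 0.156 times in LIP on day 0. On day 2 the same ratio of levels per kilobase was 7.41 ± 0.873 in CTL and 13.6 ± 3.75 in LIP.

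The 20 cytosolic genes together stood at 1209 ± 34.1 CPM (SD, n = 3) in CTL and 1189 ± 15.9 CPM in LIP on day 0, and at 2572 ± 167 CPM in CTL and 4819 ± 1470 CPM in LIP on day 2. The 17 mitochondrial genes together stood at 512 ± 22.0 and 493 ± 5.08 CPM on day 0 and at 479 ± 43.5 and 486 ± 24.0 CPM on day 2. Of the LIP libraries of day 2, the cytosolic sum was 3123 CPM in LIP 90, 5611 CPM in LIP 96 and 5723 CPM in LIP 97, against 2409, 2564 and 2743 CPM in the CTL libraries. Thus LIP 96 and LIP 97 lay far above LIP 90, and LIP 90 lay above the CTL range.

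**Figure D1:**
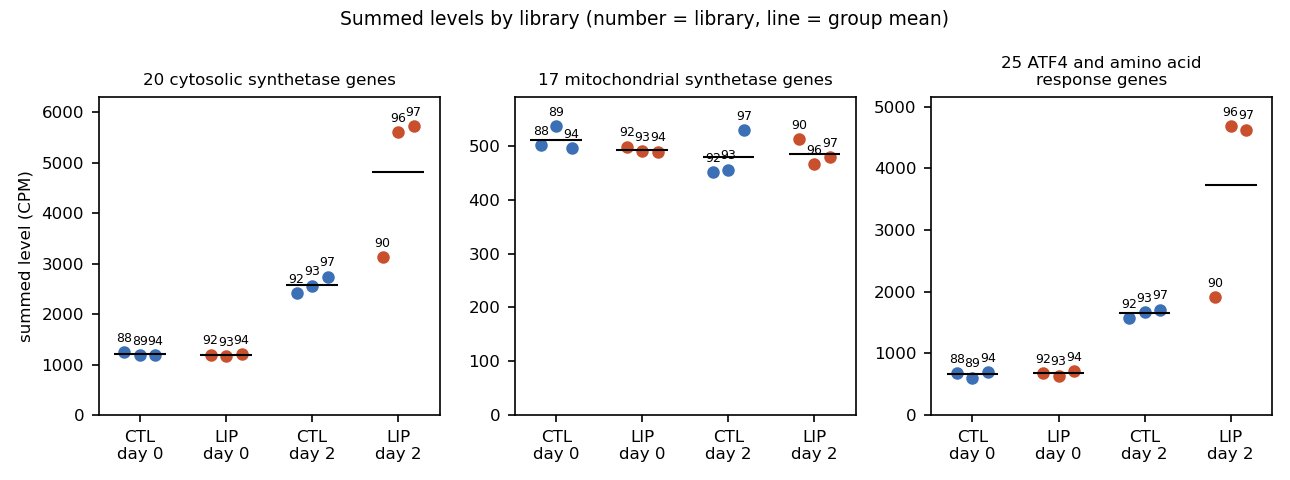
Summed CPM (vertical axis) of the 20 cytosolic synthetase genes, the 17 mitochondrial synthetase genes and the 25 genes of the ATF4 and amino acid response list, by group; points are libraries with their numbers and lines are group means (n = 3). The mitochondrial sums stay between 452 and 537 CPM in all libraries, while the cytosolic sums reach 5611 and 5723 CPM in LIP 96 and LIP 97 of day 2.

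Stimulation of CTL cells was compared first, day 2 against day 0. All 20 cytosolic genes rose, by 0.48 to 1.74 on the log2 scale, while 4 of the 17 mitochondrial genes rose, 4 fell and 9 were not called. Of all 14621 genes tested, 36.2% were called higher and 34.7% lower, and the median change was -0.01; the median was 1.06 over the cytosolic and -0.03 over the mitochondrial members. In bulk RNA, a change in the number of cells of a kind cannot be told apart from a change in RNA per cell. B cell markers had a mean sum of 120 CPM on day 0 and 34.3 CPM on day 2 in CTL, and 109 and 47.8 CPM in LIP. CD4 T cell markers had mean sums of 2109 and 2314 CPM in CTL, and 1974 and 2278 CPM in LIP. The part of such shifts in the activation changes was not tested.

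Mars1, the enzyme for methionine, changed most among the cytosolic genes: it was at 29.5, 29.4 and 28.7 CPM on day 0 and at 96.6, 95.5 and 104 CPM on day 2, a log2 fold change of 1.74 ± 0.10 (SE, adjusted p = 7.44e-08). It was followed by Hars1 (1.47 ± 0.11, histidine), Kars1 (1.41 ± 0.10, lysine), Rars1 (1.41 ± 0.10, arginine) and Wars1 (1.39 ± 0.15, tryptophan). Gars1, the glycine enzyme of both compartments, rose by 1.39 ± 0.09. The smallest rises were those of Nars1 (0.48 ± 0.10, adjusted p = 0.00119, asparagine), Sars1 (0.52 ± 0.09, adjusted p = 0.000375, serine) and Iars1 (0.73 ± 0.10, isoleucine), so Nars1 and Sars1, among the highest per kilobase before culture, changed least. For all 20 cytosolic and 6 of the 17 mitochondrial genes the day 2 libraries lay above all day 0 libraries, as for 37.7% of all genes tested, and 4 mitochondrial genes lay below, as for 37.1%.

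The mitochondrial genes did not move together. Sars2, the mitochondrial serine enzyme, was at 5.58, 6.62 and 4.61 CPM on day 0 and at 12.2, 11.9 and 16.9 CPM on day 2, a rise of 1.26 ± 0.22. Yars2 (0.51 ± 0.15) and Rars2 (0.35 ± 0.13, adjusted p = 0.0317) also rose, and Aars2 was at 0.47 ± 0.22 (adjusted p = 0.0817). Sars2 overlaps Mrps12, a gene of the mitochondrial ribosome on the opposite strand, and whether counting used strand was not given in the sources used here.

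Ears2, which loads glutamate in mitochondria, fell most: from 30.1, 33.0 and 30.4 CPM to 8.03, 6.69 and 9.20 CPM, a log2 fold change of -1.98 ± 0.15 (adjusted p = 5.73e-07). Nars2 fell by 1.13 ± 0.13, Wars2 by 0.69 ± 0.19 and Mars2 by 0.60 ± 0.12 on the log2 scale. The cytosolic and the mitochondrial enzyme for methionine therefore moved in opposite directions, and so did those for asparagine and tryptophan. Under upper-quartile scaling, which moved the median of all genes to -0.28 and the split of all calls to 28.6% higher and 44.5% lower, 19 cytosolic genes were called higher, and 2 mitochondrial genes were called higher and 8 lower.

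**Figure D2:**
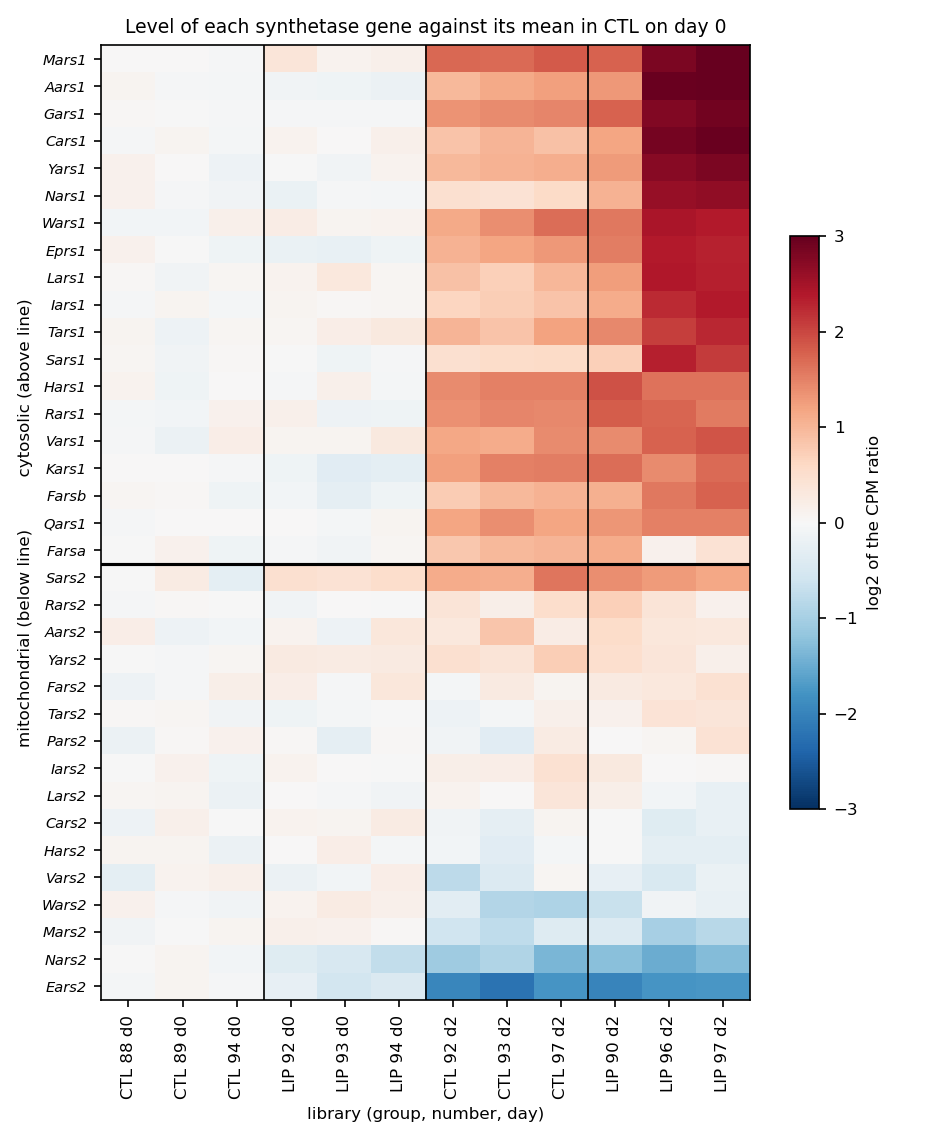
Level of 35 of the genes (rows; cytosolic above the line, mitochondrial below it) in each of the 12 libraries (columns, by group and day), as log2 of the CPM over the gene's mean in CTL on day 0. Red is higher and blue lower; LIP 96 and LIP 97 of day 2 are the darkest columns in the cytosolic rows, and Ears2 and Nars2 are blue in all 6 libraries of day 2.

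The same comparison in LIP cells gave 20 cytosolic genes higher, by 0.63 to 2.72 on the log2 scale, and 4 mitochondrial genes higher and 5 lower, where 36.1% of 14310 genes tested were called higher and 35.4% lower. The cytosolic median was 1.91 and the mitochondrial median 0.07, beside 0.01 over all genes. Under upper-quartile scaling the median of all genes was -0.29 and the calls split into 27.6% higher and 45.4% lower, with 19 cytosolic genes called higher, and 2 mitochondrial genes higher and 7 lower. All 20 cytosolic genes and 3 mitochondrial genes, Sars2 and Rars2 among them, rose in both groups, and 4 mitochondrial genes, Ears2, Nars2, Mars2 and Wars2, fell in both, where 31.5% of the 14026 genes tested in both comparisons rose in both and 29.5% fell in both.

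Aars1, the alanine enzyme, was at 67.2, 66.3 and 64.0 CPM in LIP on day 0 and at 177 CPM in LIP 90, 563 CPM in LIP 96 and 578 CPM in LIP 97 on day 2, a log2 fold change of 2.72 ± 0.40 (SE, adjusted p = 0.000356). The other large changes were those of Gars1 (2.57 ± 0.27), Cars1 (2.43 ± 0.41, cysteine), Yars1 (2.41 ± 0.36, tyrosine) and Mars1 (2.39 ± 0.29). Standard errors of the cytosolic genes ran from 0.10 to 0.41, against 0.09 to 0.15 in CTL, and the LIP libraries of day 2 differed among themselves. The smallest cytosolic rise was that of Farsa (0.63 ± 0.23, adjusted p = 0.0341), and that of Qars1 (1.42 ± 0.10) was also among the smallest.

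Among the mitochondrial genes of LIP cells, Sars2 rose by 0.78 ± 0.15, Rars2 by 0.45 ± 0.16 and Tars2 by 0.36 ± 0.11. Aars2 was at 0.28 ± 0.18 (adjusted p = 0.193). Ears2 fell by 1.45 ± 0.15, Mars2 by 0.84 ± 0.15 and Nars2 by 0.84 ± 0.13, and Wars2 and Cars2 were also called lower. All 20 cytosolic and 4 mitochondrial genes lay above their day 0 range in every day 2 library, as for 37.9% of all genes, and 6 mitochondrial genes lay below it, as for 38.4%. Without LIP 90 the same comparison called 20 cytosolic genes higher, and 4 mitochondrial genes higher and 6 lower, beside 38% and 37% of all genes. Across the 17 mitochondrial genes the changes in CTL and in LIP had a Pearson r of 0.918 and a Spearman rho of 0.875, and across the 20 cytosolic genes an r of 0.129 and a rho of 0.012. These are descriptions across genes, which share the libraries of each group and are not independent replicates; the CTL and LIP comparisons have no library in common.

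**Figure D3:**
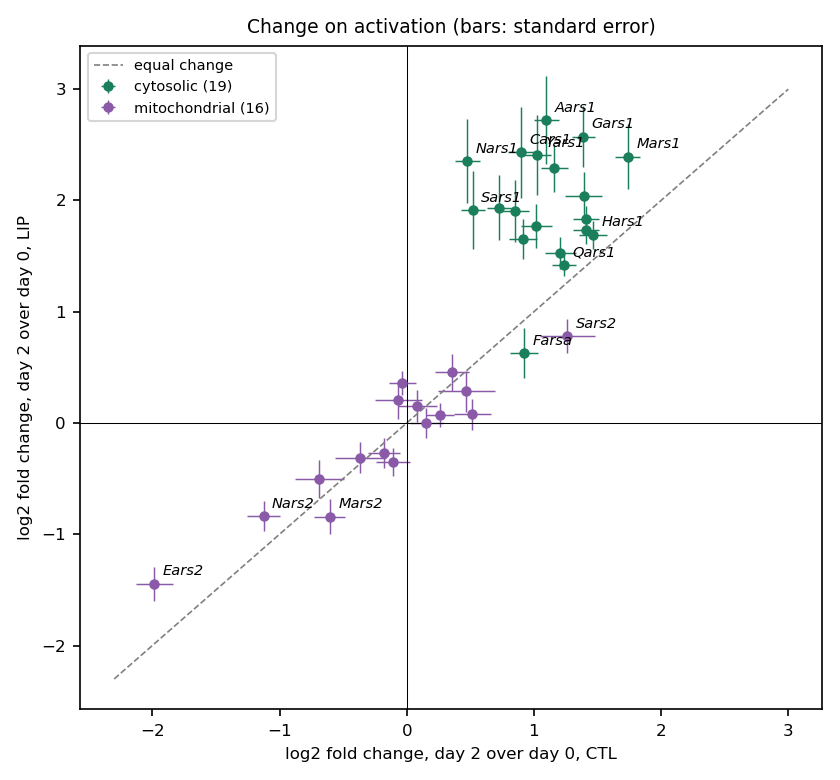
Log2 fold change of day 2 over day 0 in CTL (horizontal) and in LIP (vertical) for 19 cytosolic and 16 mitochondrial genes, with standard errors; the dashed line marks equal change. The mitochondrial genes lie along the line from Ears2 at -1.98 and -1.45 to Sars2 at 1.26 and 0.78, and 18 of the 19 cytosolic genes shown lie above it, Farsa being the exception.

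Before stimulation the LIP and CTL groups were close. On day 0 no member was called, where 0.0569% of 14064 genes tested were called higher and 0.37% lower by edgeR. At an unadjusted p under 0.05, 2 members were higher and 5 lower (6.67% and 7.2% of all genes), and DESeq2 called 1, Nars2, lower, beside 1.04% of all genes. Changes of the members ran from -0.51 to 0.48, with a median of 0.01.

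Nars2, the mitochondrial asparagine enzyme, had the lowest p: it was at 74.4, 79.2 and 71.0 CPM in CTL and at 58.3, 53.9 and 44.9 CPM in LIP, without overlap, at -0.51 ± 0.10 (adjusted p = 0.0525). It passed the threshold without CTL 94 (-0.55, adjusted p = 0.0111) and in DESeq2, and not with all 12 libraries in one fit (adjusted p = 0.341). Ears2 (-0.40 ± 0.11, adjusted p = 0.154) was also at lower values in LIP without overlap between the groups. Among the cytosolic genes the lowest p values were those of Kars1 (-0.24 ± 0.08, adjusted p = 0.229), Eprs1 (-0.18 ± 0.08, adjusted p = 0.352) and Mars1 (0.21 ± 0.10, adjusted p = 0.371). 3 members lay apart between the groups as higher and 6 as lower, against 9.66% and 9.54% of all genes. Transcripts of pancreatic acinar cells, listed as markers of cells next to the spleen, summed to 25.9 CPM in LIP 93 and 6.01 CPM in LIP 94 and to under 1 CPM in the other day 0 libraries. Markers of natural killer or cytotoxic cells summed to between 5.66 and 17.9 CPM in CTL and between 16.0 and 25.5 CPM in LIP on day 0. The part of both sets in these values was not tested.

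After stimulation most cytosolic genes were at higher values in LIP than in CTL, with a wide spread between the LIP libraries. On day 2 edgeR called no member in either direction, and 0% of all 14041 genes tested. At an unadjusted p under 0.05, 16 members were higher and 0 lower, beside 8.33% and 8.2% of all genes, and DESeq2 called 11 members higher, all of them cytosolic, beside 2.02% of all genes. Of the 20 cytosolic genes 19 had a log2 value above 0, with a median of 0.89, and 8 of the 17 mitochondrial genes did, with a median of -0.02, beside 49.2% and a median of -0.01 over all genes. In 14 of the 37 members, all cytosolic, every LIP library lay above every CTL library, and in none below; 9.99% and 11.3% of all genes tested did so.

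The values of single libraries showed the spread. Nars1 was at 110, 107 and 118 CPM in CTL, and at 164 CPM in LIP 90, 488 CPM in LIP 96 and 503 CPM in LIP 97. Its log2 fold change was 1.78 ± 0.37 (SE, adjusted p = 0.12). All 3 LIP libraries lay above CTL, but LIP 90 was nearer to the CTL libraries than to the other LIP libraries.

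Aars1 was at 142, 158 and 170 CPM in CTL and at 177, 563 and 578 CPM in LIP (1.48 ± 0.39, adjusted p = 0.15). Sars1 was at 142, 150 and 152 CPM in CTL and at 168, 510 and 439 CPM in LIP (1.32 ± 0.35, adjusted p = 0.15). Gars1 was at 161, 170 and 175 CPM in CTL and at 216, 433 and 477 CPM in LIP (1.14 ± 0.27, adjusted p = 0.133). In these genes LIP 90 lay above the CTL range, and LIP 96 and LIP 97 lay far above LIP 90.

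Lars1, the leucine enzyme, was at 110, 98.7 and 120 CPM in CTL and at 142, 317 and 303 CPM in LIP (1.20 ± 0.28, adjusted p = 0.131). Tars1, the threonine enzyme, was at 83.2, 75.2 and 96.1 CPM in CTL and at 113, 175 and 198 CPM in LIP (0.92 ± 0.21, adjusted p = 0.131). Eprs1 was at 313, 342 and 373 CPM in CTL and at 436, 789 and 745 CPM in LIP (0.93 ± 0.22, adjusted p = 0.135). Wars1, a gene also induced by interferon, overlapped between the groups, at 77.0, 92.1 and 112 CPM in CTL and 106, 193 and 182 CPM in LIP (0.76 ± 0.24, adjusted p = 0.191).

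Other cytosolic genes did not show this pattern. Kars1 was at 155, 189 and 191 CPM in CTL and at 212, 178 and 213 CPM in LIP (0.16 ± 0.13, adjusted p = 0.577), so its groups overlapped. Hars1, Qars1 and Rars1 had log2 values between 0.18 and 0.27, with adjusted p between 0.277 and 0.48. In Hars1 and Rars1 the groups did not overlap, and LIP 90 was the highest library. Against the CTL mean, the cytosolic genes ran from 1.00 to 1.47 times in LIP 90, from 0.57 to 4.36 times in LIP 96 and from 0.70 to 4.50 times in LIP 97. More than 2 times the CTL mean was reached by 0, 12 and 11 of the 20 cytosolic genes and by none of the mitochondrial genes, beside 1.13%, 3.69% and 3.06% of all genes in the same libraries. In LIP 90, 17 of the 20 cytosolic genes lay above all CTL libraries, as did 33.4% of all genes tested, and 17 did so in LIP 96 (34.2%) and 18 in LIP 97 (29.8%).

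**Figure D4:**
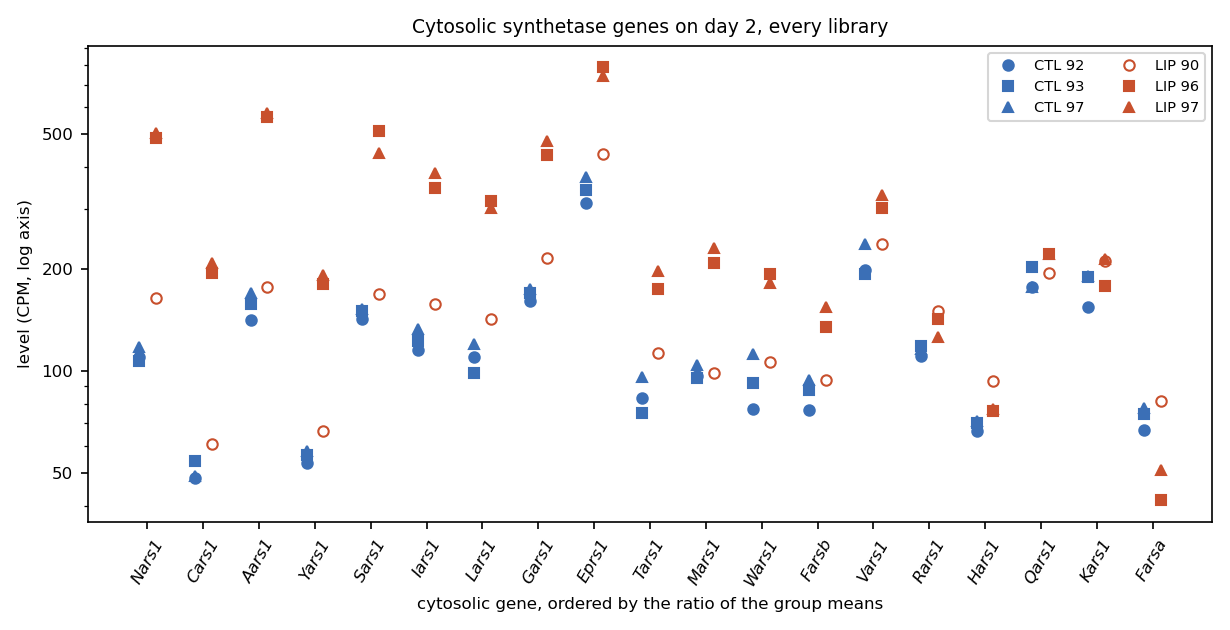
CPM on a log axis (vertical) of 19 cytosolic genes on day 2, ordered by the ratio of the group means, with 1 point for each CTL library (blue) and LIP library (red, LIP 90 open). From Nars1 to Gars1 the points of LIP 96 and LIP 97 lie at more than 2 times the CTL mean; for Farsa they lie below all CTL points.

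The fit without LIP 90 is given beside the fit of all libraries. LIP 90 was singled out after its values were seen. Wherever this fit is quoted, its calls and p-values therefore describe the remaining libraries and are no independent test. Without LIP 90, 15 members were called higher and 1 lower, where 7.74% of 14453 genes tested were called higher and 6.19% lower; leaving out any other library gave 0 in both directions. The 15 were 14 cytosolic genes, from Nars1 (2.16 ± 0.10, adjusted p = 4.34e-06) and Cars1 (2.02 ± 0.11) to Farsb (0.77 ± 0.12) and Vars1 (0.61 ± 0.12), and the mitochondrial Tars2 (0.43 ± 0.12, adjusted p = 0.0438). The 1 lower was Farsa (-0.64 ± 0.14, adjusted p = 0.0155). In that fit 2 LIP libraries stand against 3 CTL libraries.

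Other transcripts also differed between the libraries of day 2, in different patterns. The 6 B cell markers summed to 61.4 CPM in LIP 96, 60.4 CPM in LIP 97 and 58.9 CPM in CTL 97. They summed to between 21.1 and 22.7 CPM in the other 3, with Ms4a1 at 0 in CTL 92. The 5 natural killer or cytotoxic markers summed to 49.6 CPM in LIP 96, most of it Gzma at 46.2 CPM, and to between 0.955 and 13.1 CPM in the others. The CD8 markers Cd8a and Cd8b1 summed to 13.2 CPM in LIP 96 and 9.20 CPM in LIP 97 and to between 4.43 and 6.33 CPM in the others, most of it Cd8b1 in every library. Tfrc, the transferrin receptor, was at 286 CPM in LIP 96 and 569 CPM in LIP 97 and between 1118 and 1614 CPM in the others, while Mki67, a gene of dividing cells, was between 1540 and 1968 CPM in all 6. Cd44 was at 257 and 286 CPM in LIP 96 and LIP 97 and between 364 and 468.5 CPM in the others. Myc was at 137 and 224 CPM in LIP 96 and LIP 97 and between 233 and 291 CPM in the others. Il2ra lay between 1299 and 1851 CPM in all 6. The cytosolic synthetase sum was 2743 CPM in CTL 97, 2409 CPM in CTL 92 and 2564 CPM in CTL 93. Whether it goes with the B cell marker sum was not tested. Single genes of the plasma cell and acinar lists were lower in all 3 LIP libraries, LIP 90 included, than in CTL. Sdc1 was at 0.655 to 1.61 CPM in LIP and 2.04 to 6.81 CPM in CTL, with Jchain at no more than 0.454 CPM and Tnfrsf17 at 0, and Prss2 was at 2.98 to 5.06 CPM in LIP and 5.11 to 10.03 CPM in CTL, with the other acinar genes at no more than 0.179 CPM. The part of these transcripts in the synthetase values was not tested.

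No mitochondrial gene was called on day 2, and their lowest p values were those of Tars2 (0.32 ± 0.13, adjusted p = 0.287), Nars2 (-0.25 ± 0.15, adjusted p = 0.453) and Fars2 (0.23 ± 0.15, adjusted p = 0.479). Nars2 and Ears2, at lower values in LIP on day 0, overlapped between the groups on day 2, where Ears2 stood at 0.12 ± 0.20. For 14 amino acids both compartments have an enzyme named by the same letter. The cytosolic gene had the higher log2 value in 12 of the 14 pairs for activation in CTL, in 13 for activation in LIP, in 7 for LIP against CTL on day 0 and in 14 for LIP against CTL on day 2. One of the exceptions in CTL was serine, where Sars2 rose by more than Sars1. The median difference within pairs was 1.03 in CTL activation and 1.93 in LIP activation.

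Farsa and Farsb, the subunits of a single enzyme, parted in LIP 96 and LIP 97. Farsa (chr8:85583610-85595887, plus strand, GRCm39) was at 66.7, 74.5 and 77.5 CPM in CTL on day 2 and at 81.5, 41.6 and 51.1 CPM in LIP 90, LIP 96 and LIP 97 (-0.34 ± 0.22, adjusted p = 0.479). Farsb (chr1:78392766-78465534, minus strand) was at 76.6, 87.9 and 93.7 CPM in CTL and at 94.04, 135 and 155 CPM in LIP (0.56 ± 0.19, adjusted p = 0.212). The ratio of Farsb to Farsa was 1.05 to 1.25 in the 6 libraries of day 0, 1.15 to 1.21 in CTL and 1.15 in LIP 90 on day 2, and 3.24 and 3.03 in LIP 96 and LIP 97. The difference of the log2 ratio between LIP and CTL on day 2 was 0.93 (two-sided exact permutation test, p = 0.3, n = 3 per group; the smallest p this design allows is 0.1).

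**Figure D5:**
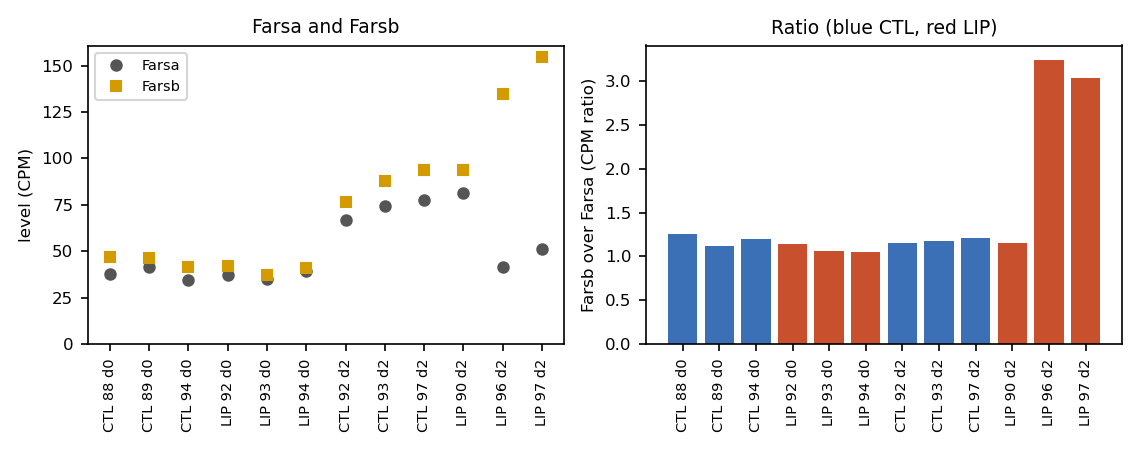
CPM of Farsa and Farsb (left) and the ratio of Farsb to Farsa (right, bars from 0) in each of the 12 libraries, ordered by group and day. The ratio lies between 1.05 and 1.25 in 10 libraries and is 3.24 and 3.03 in LIP 96 and LIP 97 of day 2.

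The scaffold of the multisynthetase complex parted in a like way. Aimp1, Aimp2 and Eef1e1 all rose on activation in both groups, by 0.91 to 1.15 in CTL and 0.98 to 1.46 in LIP, where 36.2% and 36.1% of all genes were called higher. On day 2 Aimp1 was at 47.9, 56.6 and 54.7 CPM in CTL and at 60.5, 100 and 79.2 CPM in LIP 90, LIP 96 and LIP 97. Aimp2 was at 23.4, 26.5 and 29.2 CPM in CTL and at 29.9, 16.0 and 19.4 CPM in LIP, and Eef1e1 at 43.0, 47.3 and 53.1 CPM and at 60.1, 30.5 and 36.3 CPM. None of the 3 was called in LIP against CTL; without LIP 90 Aimp1 was called higher (0.77 ± 0.13) and Aimp2 (-0.56 ± 0.16) and Eef1e1 (-0.50 ± 0.14) lower, beside 7.74% and 6.19% of all genes. The 8 enzymes of the complex had a median log2 value of 0.56 on day 2 and the 12 cytosolic genes outside it a median of 1.03.

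The enzymes fall into classes I and II by the fold of their catalytic domain, and both rose on activation: 9 of 9 cytosolic class I genes and 10 of 10 class II genes in each group, beside 36.2% of all genes in CTL and 36.1% in LIP, with Eprs1, which has both, apart. On day 2 the LIP against CTL medians were 0.85 for cytosolic class I and 0.74 for cytosolic class II genes.

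The partners of the synthetases moved in both directions. The list of 16 genes of tRNA charging, repair and export also holds Tars3, a threonyl-tRNA synthetase gene that the name rule did not take. Of the 16, 8 rose and 3 fell in CTL, beside 36.2% and 34.7% of all genes. In LIP 6 rose and 2 fell, beside 36.1% and 35.4%. The share that rose in LIP was thus near that of all genes. Xpot, the nuclear export factor for tRNA, rose in both (1.05 and 1.99) and was at 121, 115 and 134 CPM in CTL and 149, 288 and 272 CPM in LIP on day 2 (0.93, adjusted p = 0.14). Aarsd1, a relative of Aars1 that clears wrongly loaded tRNA for alanine, rose by 1.53 in both groups. Pstk, which works on selenocysteine tRNA, fell by 1.09 in CTL and 1.31 in LIP. Without LIP 90, Xpot and Ptrh2 were the 2 of 16 partners called higher on day 2, beside 7.74% of all genes.

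The 25 listed genes of the ATF4 and amino acid response summed to 1568, 1669 and 1708 CPM in CTL on day 2, and to 1906 CPM in LIP 90, 4680 CPM in LIP 96 and 4622 CPM in LIP 97. Of the 23 tested for activation, 19 rose and 1 fell on activation in CTL (36.2% and 34.7% of all genes) and 21 rose and 1 fell in LIP (36.1% and 35.4%), the one that fell being Ddit4, whose groups overlapped in CTL. On day 2 none of the 24 tested was called in LIP against CTL, 20 were higher and 0 lower at an unadjusted p under 0.05 (8.33% and 8.2% of all genes), and in 17 every LIP library lay above every CTL library (9.99%). Asns, asparagine synthetase, was at 23.3, 18.6 and 19.2 CPM in CTL and at 45.4, 279 and 289 CPM in LIP (3.32, adjusted p = 0.108). Trib3, a pseudokinase, was at 3.59, 2.99 and 3.97 CPM in CTL and at 6.27, 142 and 102 CPM in LIP (4.56, adjusted p = 0.12). Atf4 itself was at 154, 132 and 174 CPM in CTL and at 194, 489 and 451 CPM in LIP (1.29, adjusted p = 0.139). Eif2ak4, the kinase that senses uncharged tRNA, was at 25.5, 30.0 and 27.1 CPM in CTL and at 25.6, 23.5 and 22.8 CPM in LIP (-0.21, adjusted p = 0.444). Without LIP 90, 22 of the 25 were called higher and 0 lower, beside 7.74% and 6.19% of all genes.

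Ddit3, one of the listed genes, overlaps Mars1 (chr10:127128344-127147776, minus strand) on the opposite strand. It was at 8.46, 7.76 and 10.2 CPM in CTL and at 10.3, 94.5 and 85.8 CPM in LIP on day 2. Reads of the pair cannot be told apart unless strand was used in counting. Of 12 regulators around Myc and mTORC1, which drive growth, 7 rose and 4 fell in CTL and 6 rose and 4 fell in LIP, beside the same shares of all genes as for the partners; those that fell were near that share. Myc rose by 1.58 and 1.59, and was at 235, 291 and 233 CPM in CTL and at 284, 137 and 224 CPM in LIP on day 2 (-0.25, adjusted p = 0.648). Without LIP 90, 1 of these 12, Castor1, a sensor of arginine, was called on day 2, as higher, a share near the 7.74% of all genes called higher in that fit.

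Since known ATF4 targets were among the members, the start regions were searched for TGATGNAA, the core of the amino acid response element, on both strands from 250 bases before to 50 after the start of the canonical transcript (GRCm39). It was found at 3.84% of 21757 protein-coding genes, at 5 of the 20 cytosolic members, which are Aars1, Cars1, Gars1, Iars1 and Tars1, and at 0 of the 17 mitochondrial members. Of 24 genes of the ATF4 list, 4 held it (16.7%). The 26 bases around 1 match in each gene are shown because the match is a feature of sequence that these 5 genes share. They run 5′ to 3′ on the strand of the gene with the match in capitals, and since each of these matches lies on the opposite strand, the capitals read as its reverse complement.
Aars1, 34 to 9 bases before the start, chr8:111760474-111760499, plus: cgggtcactTTTCATCAgagcgctct
Cars1, bases 19 to 44 of the transcript, chr7:143153784-143153809, minus: gcgccgcggTTGCATCAgattctgga
Gars1, bases 4 to 29 of the transcript, chr6:55014947-55014972, plus: gctgcgctaTTTCATCAtgcaccggg
Iars1, bases 29 to 54 of the transcript, chr13:49835604-49835629, plus: ctgtcagtaTTGCATCAcctccagac
Tars1, from 17 bases before the start to base 9 of the transcript, chr15:11399743-11399768, minus: ggagtcccgTTGCATCAgctggttag

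All 5 stretches overlap annotated exons and untranslated regions of their own gene, that of Aars1 through longer transcripts that start upstream. TTGCATCA stands in 3 of the 5 and TTTCATCA in Aars1 and Gars1. On day 2 the 5 genes with a match had log2 values of 0.92 to 1.61 between LIP and CTL, with a median of 1.25, and the 15 cytosolic genes without one had values of -0.34 to 1.78, with a median of 0.56. Nars1 and Sars1, also known as ATF4 targets, had no match in this window and values of 1.78 and 1.32. In CTL activation the medians were 1.02 with and 1.16 without a match. In the RefSeq start windows of GRCm38.p6, matched by symbol for 27 members, 5 held the letters, with Yars1 in place of Cars1, and 3.97% of all windows did.

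The difference between the activation of LIP and of CTL cells was tested as an interaction over all 12 libraries. No member was called, where 0.0323% of 15475 genes tested were called higher and 0.0194% lower by edgeR. At an unadjusted p under 0.05, 16 members were higher, 13 cytosolic and 3 mitochondrial genes, Ears2 and Tars2 among them, and 1, Yars2, was lower (8.65% and 7.28% of all genes). DESeq2 called 8 members higher, beside 2.16% of all genes. The comparison uses the same day 2 libraries as the one above. Its largest values were those of Nars1 (1.87 ± 0.41, adjusted p = 0.084) and Aars1 (1.62 ± 0.43, adjusted p = 0.105), and Sars1 stood at 1.38 ± 0.39, Gars1 at 1.18 ± 0.29 and Eprs1 at 1.12 ± 0.25 (adjusted p = 0.084). Farsb was at 0.73 ± 0.22, Wars1 at 0.64 ± 0.28, Kars1 at 0.42 ± 0.15 and Farsa at -0.30 ± 0.27, with adjusted p between 0.131 and 0.65. Without LIP 90, 14 members were called higher, 13 of them cytosolic and 1, Tars2, mitochondrial, and Farsa was called lower, beside 5.64% and 4.45% of 15823 genes; leaving out any other library gave 0.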

How the data were processed

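RNA from splenic CD4+ T cells was rRNA-depleted and prepared with a directional kit. The authors deposited RSEM expected counts per gene (FastQC 0.11.9, Trimmomatic 0.38, RSEM 1.3.0 with Bowtie2, GRCm39 per the labels). The deposited result tables, used for gene symbols only, hold the authors' own comparisons and 12 columns of values per sample, which were not used. Expected counts were rounded to whole numbers and fitted for all genes with edgeR 4.0.16 in R 4.3.3 (filterByExpr, TMM, quasi-likelihood F test, Benjamini-Hochberg adjustment). Each comparison was fitted on its own 6 libraries, the difference of activation on all 12. DESeq2 1.42.0 was an alternative. Gene models came from GENCODE M39. The fits were tested on simulated counts, where in every comparison they missed part of the changed genes and made some false calls. With 3 libraries per group, single values were tested by exact permutation. The members and lists were chosen with earlier results of these data known. Named with values were the 5 highest and 3 lowest changes of each compartment on activation, the 3 lowest p values of each between LIP and CTL, the 3 highest and 3 lowest levels, and Wars1, Eprs1, Gars1, Kars1, Farsa, Farsb, Aars1, Nars1 and Sars1. Genes named for a library pattern, Tfrc, Mki67, Cd44, Gzma, Cd8b1, Sdc1, Prss2 and Ms4a1 among the markers, were chosen after their values were seen. A few items that these rules would name are not reported here.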

Additional observations from a re-analysis of the deposited data

How the results depend on the processing

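Each comparison was refitted with RLE and upper-quartile scaling, with DESeq2, without a filter, with at least 10 counts in every library, with all 12 libraries in one fit, with protein-coding records only and without each library in turn. Cytosolic genes called higher on activation in CTL numbered 18 with all 12 libraries in one fit (35.3% of all genes), against 20. In LIP they numbered 19 with protein-coding records only (35.9%), and 19 without any 1 of the day 0 libraries (32% to 32.5%), against 20. Members called lower on activation in CTL numbered 8 under upper-quartile scaling, against 4. Those called lower on activation in LIP numbered 3 without a filter and 3 to 6 when a library was left out, against 5, with 3 without any 1 of the day 0 libraries. When a library was left out, the adjusted p of Rars2 reached 0.0993 for activation in CTL and 0.098 in LIP. That of Farsa for activation in LIP reached 0.103. On day 0, 1 member (Nars2) was called lower under RLE scaling, DESeq2, no filter, the 10-count filter and protein-coding records (0.412%, 1.04%, 1.49%, 0.476% and 0.577% of all genes), and 0 to 1 when a library was left out, the 1 without CTL 94. On day 2, 11 members were called higher by DESeq2 (2.02% of all genes in that fit), 12 without a filter (1.59%) and 13 with all 12 libraries in one fit (2.88%), and 0 to 15 higher and 0 to 1 lower when a library was left out. For the difference of activation, 8 were called higher by DESeq2 (2.16%) and 11 without a filter (1.82%), and 0 to 14 higher and 0 to 1 lower when a library was left out; the highest values were reached without LIP 90 on day 2.

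At an unadjusted p under 0.05 on day 0, the members higher numbered 1 under RLE scaling, no filter, the 10-count filter and all 12 libraries, and 0 by DESeq2, against 2, and 0 to 2 when a library was left out; those lower numbered 3 by DESeq2 and 2 to 7 when a library was left out, against 5. On day 2 those lower numbered 0 to 1 when a library was left out. For the difference of activation those lower numbered 0 by DESeq2 and without a filter, and 0 to 3 when a library was left out, against 1. Aars2 on activation in LIP turned to -0.020 under upper-quartile scaling, and Farsa on day 0 ran from -0.088 to 0.041 when a library was left out, above 0 without CTL 89 or LIP 93. With exon union lengths the ratio of cytosolic to mitochondrial medians was 3.80 in CTL and 3.55 in LIP on day 0. The median of all genes shifted to -0.12 without a filter on activation in CTL. The cause of these shifts was not tested. Between any 2 groups compared directly, at most 1 number in the titles is shared, so no paired fit was made there. For the difference of activation a replicate block on that number, chosen after seeing the data, left 1 residual degree of freedom; it called 10 members higher, beside 2.39% of all genes, and at an unadjusted p under 0.05, 4 were lower. Libraries with the same number had correlations of their deviations from the group means of -0.0546 to 0.114 over 4 pairs, and 2 of the 8 correlated best with their own number, so the number was not treated as pairing them. Leaving out a library leaves 2 against 3. On day 2, log2 values as high as that of Nars1 (1.78 ± 0.37) were not called.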
